A study of Poecilia latipinna with 15 samples.

Results

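Body length and brain expression were compared across all 15 of the 15 female sailfin mollies (Poecilia latipinna) of the series. Standard length (SL), the distance from the tip of the snout to the base of the tail fin, was the measure of body size. No female was chosen by expression. Of the 31813 transcripts in the files, 21671 had a TPM (transcript abundance corrected for length and scaled to a fixed total) above 2 in 3 or more females and were tested. Of these, 388 kept an SL slope of the same sign at an unadjusted p-value below 0.05 in a model with social context and again when a split of the females by their numbers was added, and in limma, the main test, no transcript passed adjustment for the number of tests in either model. With adjustment edgeR called 2 transcripts and DESeq2 330 in the first model, and edgeR called 0 and DESeq2 3 in the second.

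The 8 male-interaction (Mm) females had been offered a pair of males and the 7 female-interaction (Ff) females a pair of females, the stimulus fish of a pair differing in size. All were wild-type, reproductively mature females of an outdoor pond population that had been isolated before a single choice trial without physical contact. The study had selected them for spending most of the trial near the stimulus fish and for a broad range of preference. Each library was made from the whole brain of 1 female, so the females are biological replicates, and no group without social stimuli was included. The females carry numbers from 1 to 19, and females 9 to 19 (4 Mm and 3 Ff) are set here against females 1 to 8 (4 Mm and 4 Ff). The sources used here do not say what the numbers stand for. This split was made with earlier results of these expression data known, so differences in expression between the number groups describe the split.

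In live-bearing fishes of this family, females keep growing after maturity, so body length carries information on age as well as on growth and condition. The brain of bony fishes also grows in adulthood, through cell proliferation that continues in many brain regions. Body size is a social trait in mollies too, since larger fish are often dominant and larger females carry more young. Age, reproductive state and rank of the females were not analysed here.

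Females 9 to 19 were shorter than females 1 to 8. SL of females 9 to 19 had a lowest value of 30.3, a median of 34.5 and a highest value of 44.6 mm, against 40.2, 46.9 and 53.1 mm in females 1 to 8. The means were 36.5 ± 5.57 mm (SD, n = 7) and 47.0 ± 5.09 mm (SD, n = 8), a difference of -10.5 mm (2-sided exact permutation test over 6435 splits, p = 0.00404). The ranges overlapped only between 40.2 and 44.6 mm, where 2 females of the later numbers and 3 of the earlier numbers lay. The 5 shortest females all carried numbers from 9 to 19, and the 5 longest all carried numbers from 1 to 8. The contexts overlapped over most of their range of SL, with 32.3, 42.55 and 51.4 mm in Mm females and 30.3, 43.9 and 53.1 mm in Ff females.

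**Figure D1:**
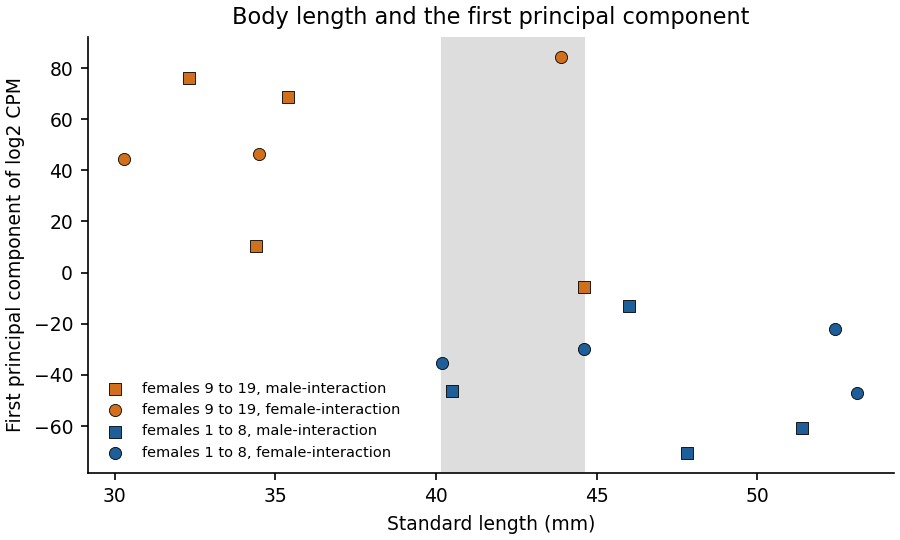
Standard length (mm) of each of the 15 females against the first principal component of log2 CPM (counts scaled by library size) over the tested transcripts, with number group by colour and context by shape. The grey band marks the lengths from 40.2 to 44.6 mm that both number groups reach, and the number groups do not overlap on the vertical axis.

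The number groups also differed in ways other than length, though not clearly in depth. Libraries of females 9 to 19 held between 5301116 and 7166756 estimated counts (median 5657585) and those of females 1 to 8 between 3424641 and 10555933 (median 5946977.5). The TMM factor, by which a library is scaled, was 0.943 to 1.010 in females 9 to 19 and 1.001 to 1.034 in females 1 to 8. Between 22692 and 24340 transcripts were detected in females 9 to 19, against 23555 to 25530 in females 1 to 8. The first principal component of log2 CPM, which held 15.4% of the variance, lay between -5.74 and 84.5 in females 9 to 19 and between -70.5 and -12.9 in females 1 to 8, with no overlap. This lack of overlap describes a split that was made with earlier results of these data known. Over all females the r of this component with SL was -0.685 (permutation p = 0.00619, adjusted p = 0.131, rho = -0.674). It was -0.586 without the 2 females farthest from the median SL. Within number groups r was -0.178 in females 9 to 19 (exact permutation p = 0.711, adjusted p = 0.991, rho = -0.0357) and -0.148 in females 1 to 8 (exact permutation p = 0.719, adjusted p = 0.991, rho = -0.214). The relation over all females cannot be told apart from number group. The number of transcripts detected rose with SL over all females (r = 0.586, permutation p = 0.0231, adjusted p = 0.277 over 36 relations, and rho = 0.538, permutation p = 0.0412, adjusted p = 0.371), and r was 0.623 without the 2 females farthest from the median SL. Within number groups that r was 0.138 in females 9 to 19 and 0.302 in females 1 to 8. Both were positive and neither passed the threshold, in groups of 7 and 8 females that span less length. The preference score, the share of stimulus-directed movements toward the favored fish, also differed with the number, with a median of 0.537 (0.5 to 0.763) in females 9 to 19 and of 0.8275 (0.571 to 1) in females 1 to 8. Depth and preference were each entered in the model of SL below.

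With context in the model, SL had a slope at an unadjusted p below 0.05 in 3370 of the 21671 transcripts, which is 15.6%, where a threshold of 5% lets through 1084 by chance if no transcript follows SL. Of these, 1618 rose with SL (7.47% of those tested) and 1752 fell (8.08%). No transcript had a Benjamini-Hochberg adjusted p below 0.05 in limma, beside the 2 in edgeR and 330 in DESeq2. Without TMM factors or on log2(TPM + 0.1), which scale the libraries in other ways, the rising share of these calls was 55.2% and 58.3%, against 48.0% here. The lowest adjusted p in limma was 0.052, and 16 transcripts were below 0.1.

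With number group added, the count was no longer above the 1084 of the threshold. The slope then passed an unadjusted p of 0.05 in 891 transcripts (4.11%), 444 rising (2.05%) and 447 falling (2.06%), which is under the 1084 that the threshold lets through. The rising share of these calls, 49.8%, was 30.6% on log2(TPM + 1) and 29.9% on log2(TPM + 0.1). This depended on how the numbers were entered. With the female's number as a numeric term in place of the split, 1393 transcripts (6.43%) passed, which is above 1084, and 70.2% of them rose. With number group as the split, the adjusted count was 0 in limma and in edgeR and 3 in DESeq2, and the lowest adjusted p in limma was 0.281. Of the 3370 transcripts called with context alone, 2999 (89.0%) kept the sign of their slope, against 67.3% of all transcripts tested. Their slopes shrank, with a median ratio of 0.534 between the fit with number group and the fit without it, and their standard errors grew, with a median ratio of 1.41. The number group raises the variance of the SL slope by a factor of 2.11, because SL and number group are themselves related (r = -0.727). The number group term, females 9 to 19 minus females 1 to 8 at equal SL, had an unadjusted p below 0.05 in 2914 transcripts (13.4%), and 126 (0.581%) passed adjustment in limma. Since the split was made with earlier results of these data known, these 2 counts describe it and are not an independent test of it. Body length and whatever the numbers stand for could be told apart only through the spread of length inside each number group. In females 9 to 19, 5 females lay between 30.3 and 35.4 mm and the other 2 at 43.9 and 44.6 mm. Slopes within that group therefore rest largely on those 2 females.

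**Figure D2:**
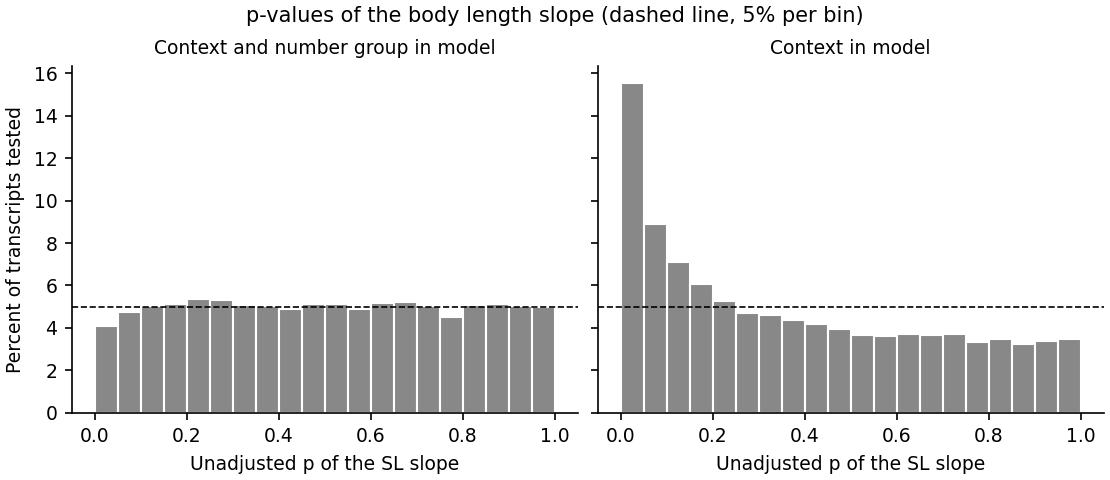
Percent of the 21671 transcripts in each of 20 equal bins of the unadjusted p of the SL slope, with context and number group in the model (left) and with context alone (right). The dashed line is the 5% of each bin under no relation, and the lowest bin holds 4.11% on the left and 15.6% on the right.

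Each number group was also fitted alone, with context in the model. SL had an unadjusted p below 0.05 in 911 transcripts (4.2%) among females 9 to 19 and in 657 (3.03%) among females 1 to 8, with 0 adjusted calls in limma in either. In both fits 22 transcripts passed with the same sign (0.102%) and 19 with opposite signs (0.0877%). The sign of the slope was shared by both number groups in 51.3% of all transcripts, and across transcripts, which are not independent replicates, the slopes had a Pearson's r of 0.0395. The 7 and 8 females of these fits span less length than all 15, which widens the error of each slope. The slopes of the number groups differed at an unadjusted p below 0.05 in 869 transcripts (4.01%) and after adjustment in 0.

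**Figure D3:**
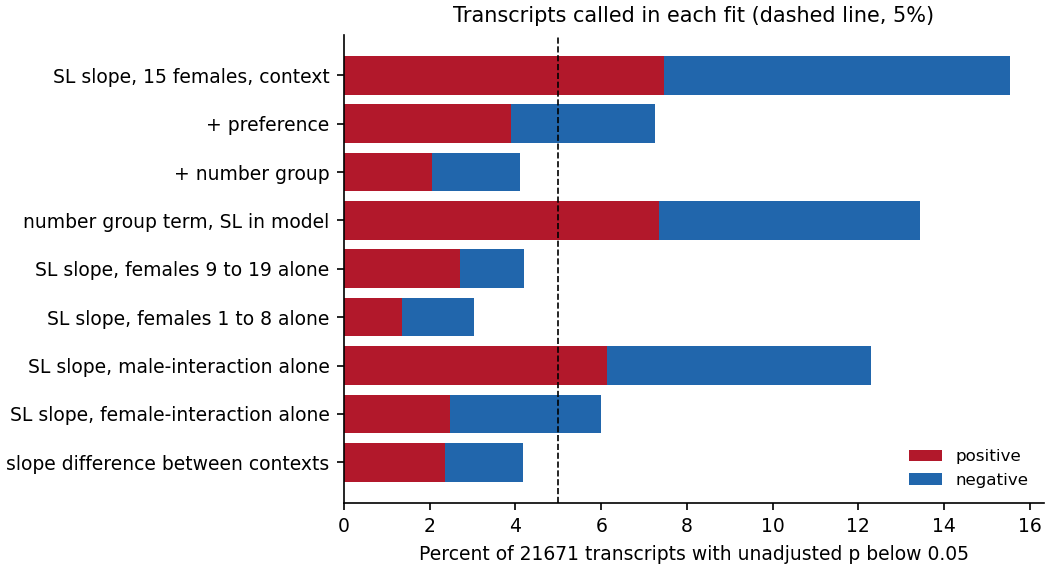
Percent of tested transcripts with an unadjusted p below 0.05 in each fit, split into positive (red) and negative (blue) coefficients. The dashed line marks 5%, and the bars of the SL slope reach 15.6% with context alone, 7.27% with preference added and 4.11% with number group added.

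The slopes of the contexts were compared in a model with a slope for each and without number group. Slopes given below for Mm and Ff females come from that model. The slope of Mm females minus that of Ff females had an unadjusted p below 0.05 in 906 transcripts (4.18%), 509 of them positive (2.35%) and 397 negative (1.83%), and 0 passed adjustment in limma. In edgeR the adjusted count was 0 and in DESeq2 it was 5. Fitted alone, Mm females gave 2663 transcripts (12.3%) with an SL slope and Ff females 1302 (6.01%), 0 in either case after adjustment in limma. Neither number group nor preference was in these fits, and preference and SL move together in Mm females. Of the 388 kept transcripts, 12 had a slope difference between contexts at an unadjusted p below 0.05.

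With the preference score in the model in place of number group, SL had a slope in 1575 transcripts (7.27%), 844 rising (3.89%) and 731 falling (3.37%), and 0 passed adjustment in limma or edgeR and 26 in DESeq2. The rising share, 53.6%, was 43.7% in DESeq2, 48.8% in edgeR and 48.3% on log2(TPM + 1). Of the 3370 transcripts called with context, 1386 were among them, and of the 388 kept transcripts, 335 (86.3%) were. Both lists were chosen by SL slopes in the same females, so these shares are not independent of that choice and support nothing. How far the choice sets them was not tested. With the library total as a term, 2954 transcripts had an SL slope beside context and 916 beside context and number group, and 307 were called in both with the same sign.

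The 388 kept transcripts (1.79% of those tested) comprised 180 that rose with SL (0.831%) and 208 that fell (0.960%). Which direction held more of them was not stable, since the rising share was 46.4% here, 62.2% with the female's number as a numeric term and 41.7% to 59.0% when 1 female was left out. It was 59.0% without Ff female 1, 58.8% without Mm female 3 and 53.3% without Ff female 7, and below 50% without any other single female. They made up 11.5% of the transcripts called with context and 43.5% of those called with number group added. A further 501 were called only with number group in the model, and 2 were called in both with opposite signs. All 16 transcripts with an adjusted p below 0.1 under context alone were among the 388. The counts that follow come from the females and values that chose the 388, so they describe the list and support nothing. The number group term passed an unadjusted p of 0.05 in 29 of the kept transcripts (7.47%) and in 947 (28.1%) of those called with context, beside 13.4% of all tested. The slopes of the kept transcripts had the same sign in both number groups in 383 cases (98.7%), beside 51.3% of all tested. Fitted alone, 122 of them had an unadjusted p below 0.05 in females 9 to 19 and 82 in females 1 to 8, where 4.2% and 3.03% of all tested did, and 16 passed in both with the same sign, beside 0.102% of all tested.

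**Figure D4:**
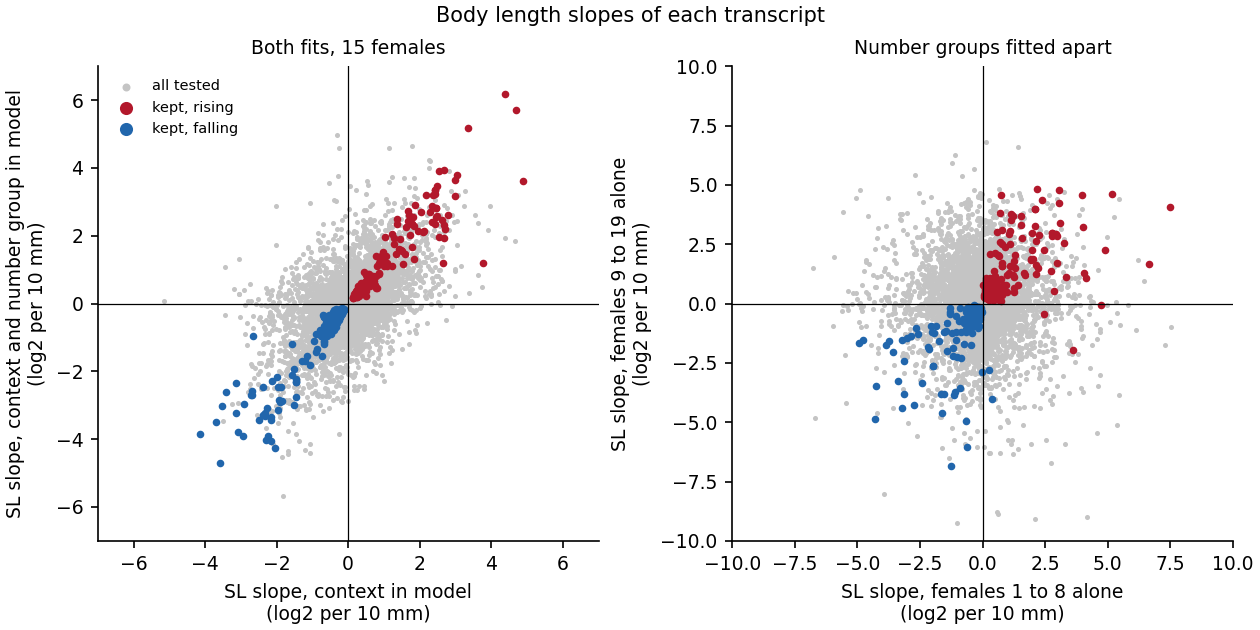
SL slopes in log2 CPM per 10 mm of every tested transcript (grey), of the 180 kept rising transcripts (red) and of the 208 kept falling transcripts (blue). The left panel sets the slope with number group in the model against that with context alone, and the right panel sets females 9 to 19 against females 1 to 8, where the slopes of all transcripts have an r of 0.0395.

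Kept transcripts that rose were longer and less abundant than those that fell. Their median length was 2114.5 bases against 1640 bases, beside 1782 bases over all transcripts tested. Their median of mean TPM was 6.53 against 14.9, beside 10.9 over all. A rounded count of 0 in 1 or more females occurred in 70 of the 180 rising transcripts (38.9%), in 47 of the 208 falling ones (22.6%) and in 4557 of all tested (21.0%). These contrasts are descriptions, since abundance bears on which slopes pass. The median slope with context in the model was 0.58 log2 per 10 mm for the rising transcripts and -0.38 for the falling ones, beside 0.02 over all tested. With number group added the medians were 0.68 and -0.41, beside 0.01. With context in the model, a fitted slope of 2-fold or more per 10 mm was reached by 68 of the 180 rising and 46 of the 208 falling transcripts. Of all 21671 tested, 1299 reached it, and the kept lists were chosen by their slopes. Among kept transcripts with a count in every female, the steepest slope was 1.57 log2 per 10 mm. Steeper ones had counts of 0, so their slopes are not fold changes to be read off. The rising transcripts held 0.227% of all TPM and the falling ones 0.960%. In whole-brain RNA, fewer cells of a type and less RNA per cell cannot be told apart.

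The identifiers of the files are Ensembl transcripts of P. latipinna. None of the 31813 matched the RefSeq gene table used here, so roles are not given and markers of brain cell types could not be checked. Transcripts of 1 gene or of near-identical genes may share reads, which can leave fractional counts. Counts were whole in every female for 34.4% of kept rising, 53.4% of kept falling and 50.1% of all tested transcripts. Among the 4 transcripts named below, this held only for ENSPLAT00000011895.1. How far shared reads set the slopes or the counts of 0 was not tested. The 2 falling and the 2 rising transcripts whose weaker moderated t over both models was largest are named. All 4 stayed among the kept transcripts in each of the 15 fits that left out 1 female. They were chosen for their t in the same females, so this describes the choice and supports nothing. For each of the 4, the limma adjusted p was 0.972 for the slope in females 9 to 19 alone, 1.00 in females 1 to 8 alone and 1.00 for the difference between contexts, so that slopes below that pass at the unadjusted threshold of 0.05 do so before adjustment only.

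ENSPLAT00000011895.1 (2181 bases) had the largest falling t. Its TPM had a lowest value of 27.4, a median of 35.6 and a highest value of 58.2 in females 9 to 19, against 23.3, 32.8 and 39.6 in females 1 to 8. The number groups overlapped, and within each of them the shortest females were at the upper end. Its slope was -0.37 ± 0.05 log2 per 10 mm (SE, 15 females) with context in the model (limma unadjusted p = 2.4e-06, adjusted p = 0.052) and -0.41 ± 0.07 with number group added (limma unadjusted p = 6.34e-05, adjusted p = 0.687). The slopes of the groups fitted alone were close to these, -0.41 ± 0.13 in females 9 to 19 and -0.42 ± 0.12 in females 1 to 8, both past the unadjusted threshold. They were -0.39 ± 0.08 in Mm and -0.36 ± 0.07 in Ff females, a difference of -0.03 ± 0.11 that did not pass it. Without Ff female 17, the shortest and the highest at 58.2 TPM, the slope was -0.35 with context and -0.39 with number group. In edgeR the adjusted p with context was 0.041, and in DESeq2 it was 1.57e-08 with context and 0.00173 with number group.

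ENSPLAT00000019975.1 (1788 bases) fell more steeply from a lower level. Its TPM was 6.95 at the lowest, 13.1 at the median and 20.6 at the highest in females 9 to 19, and 6.32, 8.30 and 13.0 in females 1 to 8. The 5 shortest females, all of the later numbers, lay between 12.1 and 20.6 TPM, while the later female 9 at 43.9 mm had 6.95 TPM and the later female 10 and the earlier female 2, both 44.6 mm long, had 7.67 and 7.70 TPM. Between 46 and 53.1 mm the values showed no further order, with 13.0 TPM in female 5 at 47.8 mm. The slope was -0.61 ± 0.11 log2 per 10 mm with context (limma adjusted p = 0.0937) and -0.72 ± 0.17 with number group (limma adjusted p = 0.996). Fitted alone, females 9 to 19 gave -0.89 ± 0.22, past the unadjusted threshold, and females 1 to 8 gave -0.50 ± 0.27, not past it. The difference between these slopes did not pass either (limma adjusted p = 1.00). With context the adjusted p was 0.119 in edgeR and 0.00217 in DESeq2, and with number group it was 0.376 in DESeq2.

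ENSPLAT00000017083.1 (3462 bases) rose with SL from a count of 0. The 5 shortest females, up to 35.4 mm, had no count for it, which with 3 counts as the limit allows 0.178 to 0.342 TPM in the 7 females with a rounded count of 0. In females 9 to 19 the remaining 2, female 9 (43.9 mm) and female 10 (44.6 mm), had estimated counts of 56.0 and 7.88. In females 1 to 8 the counts ran from 0 in Mm females 4 and 6 to 100.5 in Ff female 8, the longest fish at 53.1 mm, with 61.5 in Ff female 1, 22.7 in Ff female 2 and 9.6 in Mm female 3. The highest values were in Ff females, and Mm females of similar length had fewer than 10 counts. The slope was 2.53 ± 0.49 log2 per 10 mm with context (limma adjusted p = 0.108) and 3.90 ± 0.60 with number group (limma adjusted p = 0.281). It was 1.84 ± 1.097 in Mm and 2.56 ± 0.57 in Ff females, a difference of -0.72 ± 1.24 that did not pass the unadjusted threshold. Fitted alone, females 9 to 19 gave 4.80 ± 0.98 and females 1 to 8 gave 3.05 ± 0.74, both past the unadjusted threshold. The number group term was 3.19 log2, higher in females 9 to 19 at equal SL (limma unadjusted p = 0.000648). In DESeq2 the adjusted p was 0.00348 with number group and missing with context, where its filter on mean count left the transcript out of the adjustment. In edgeR the adjusted p was 0.175 with context, and the unadjusted p was 2.23e-05 with number group.

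ENSPLAT00000001780.1 (5606 bases) rose with SL over all females but not within females 9 to 19. Its TPM was highest in those of 1 to 8, at 11.7 in Mm female 3, 4.27 in Mm female 6, 3.197 in Mm female 5 and 2.42 in Ff female 8, and Ff females 2 and 7 had a rounded count of 0. Of females 9 to 19, 5 had a rounded count of 0, female 10 had 2.01 counts, and the only higher value, 1.18 TPM, was in the shortest fish of all, Ff female 17. The slope was 4.89 ± 0.84 with context (limma adjusted p = 0.0937) and 3.62 ± 0.88 with number group (limma adjusted p = 0.996). In females 9 to 19 alone it was -1.96 ± 1.83, not past the unadjusted threshold, against 3.62 ± 0.72 in females 1 to 8 alone, past it. The difference between these slopes did not pass (limma adjusted p = 1.00). In edgeR the slope was 1.62 with context (unadjusted p = 0.0628) and -0.31 with number group (unadjusted p = 0.835). The DESeq2 unadjusted p was 0.192 with context and 0.604 with number group. On log2(TPM + 1) the slope passed the unadjusted threshold with context (limma unadjusted p = 0.00694) but not with number group (limma unadjusted p = 0.258). For both rising transcripts the slope depends on the offset added to counts of 0 before logs are taken, so neither is a fold change to be read off.

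**Figure D5:**
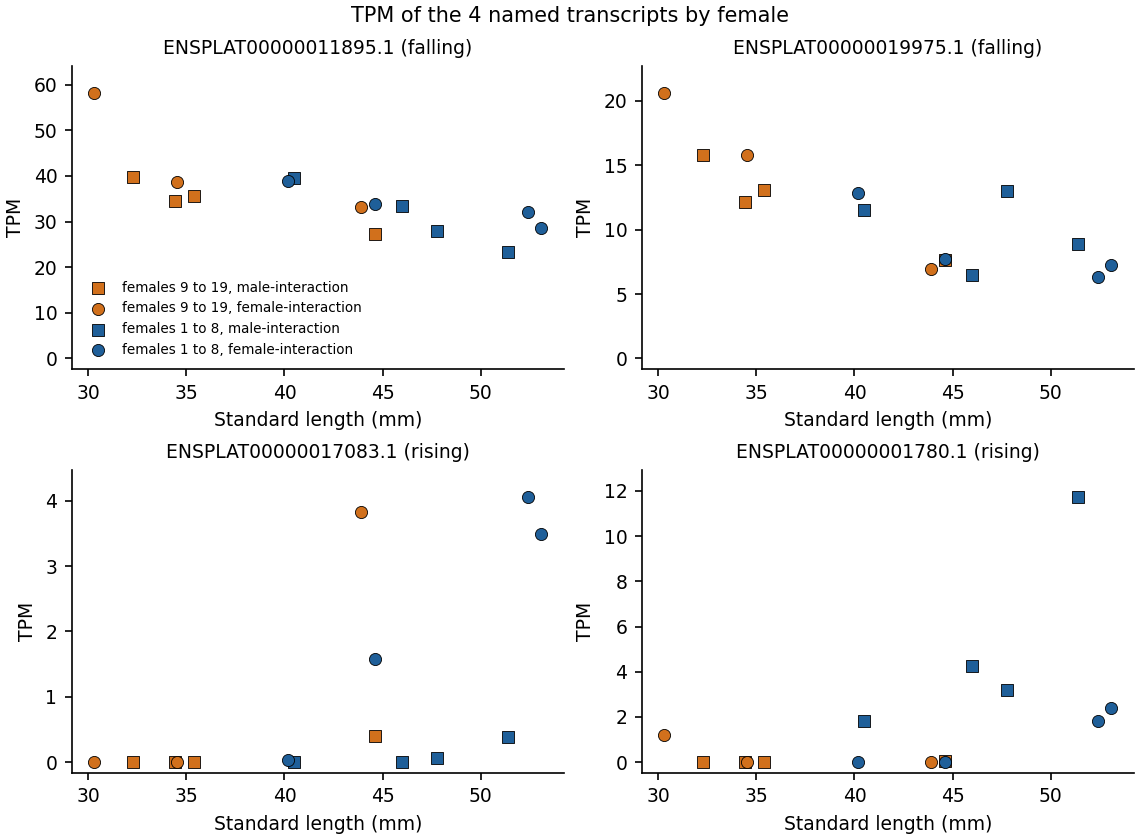
TPM of the 4 named transcripts against standard length (mm), 1 point per female, number group by colour and context by shape. The falling transcripts (upper panels) have negative slopes within both number groups, and the rising ones (lower panels) have a rounded count of 0 in 7 of the 15 females each.

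Of the transcripts next in rank, ranks 3 to 10 in each direction, all 8 rising and all 8 falling ones had the same sign of slope in both number groups and in both contexts, which follows in part from how they were chosen. Only 5 of these rising and 7 of these falling transcripts had a count in every female. The falling transcript of rank 3 had a rounded count of 0 in 11 of the 15 females. Its slope in Mm females was -0.28 ± 1.63 log2 per 10 mm. The rising transcript of rank 3 (681 bases, 11.5 TPM on average) was counted in every female. It had 1.83, 8.84 and 13.2 TPM at the lowest, median and highest in females 9 to 19, against 7.90, 14.7 and 20.2 TPM in females 1 to 8. Its slope was 0.87 ± 0.16 log2 per 10 mm with context and 0.91 ± 0.23 with number group. That slope was 0.53 ± 0.17 in Mm and 1.23 ± 0.20 in Ff females, the only difference between contexts among these 16 at an unadjusted p below 0.05 (limma adjusted p = 1.00). The most abundant of the 16 was the falling transcript of rank 6 (378 bases, 378 TPM on average). Its slope was -0.27 ± 0.05 log2 per 10 mm with context and -0.26 ± 0.07 with number group. Fitted alone, females 9 to 19 gave -0.32 ± 0.13, past the unadjusted threshold (limma adjusted p = 0.972), and females 1 to 8 gave -0.20 ± 0.11, not past it. It reached 604 TPM in the shortest female, Ff female 17, who stood apart. All other females lay between 302 TPM, in the longest, Ff female 8, and 429 TPM.

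The list of kept transcripts changed when single females were left out. Of the 388, 61 (15.7%) were kept in all 15 fits that left out 1 female, 22 of them rising. A single fit retained from 174 of the 388 (44.9%, without Mm female 10, one of the 2 later females in the shared range of lengths) to 318 (82.0%). In edgeR 232 and in DESeq2 238 of the 388 were kept, 220 in all 3 tools, and 53 in all 3 tools and without any 1 female.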

How the data were processed

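Whole-brain mRNA of 15 females was sequenced in single-end libraries, 1 per female. The paper reports sequencing on more than 1 lane and collection of the females over several months. Its text does not say which females shared a lane or a date, so neither was in the models. The authors trimmed reads with cutadapt, checked them with FastQC and quantified transcripts of the Ensembl annotation with kallisto 0.43.0, whose estimated count per transcript, as deposited, can be fractional. In the same files the authors deposited TPM, computed by kallisto from count and effective length. Context came from the sample labels, and SL, preference and female number from the study's list of females.

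Counts were rounded. Transcripts with TPM above 2 in 3 or more females were tested (21671, with 99.6% of counts) and 10142 were dropped. The test was voom and limma 3.58.1 with TMM factors of edgeR 4.0.16 in R 4.3.3, with Benjamini-Hochberg adjustment over all tested transcripts, checked on simulated data. The simulated slopes were steeper than the median of the kept transcripts and lay in well-counted transcripts only. Recovery of shallower slopes, or of slopes in transcripts with low counts, was not checked. edgeR's quasi-likelihood test and DESeq2 1.42.0 were alternatives, with other scalings, filters, terms and each female left out. DESeq2 was run with its default filter on mean count, which can leave an adjusted p missing. With context its adjustment covered fewer transcripts than that of limma and edgeR. Slopes are in log2 CPM per 10 mm. Relations of SL to library measures used permutation tests (Python 3.11.15, NumPy 2.4.6, SciPy 1.17.1), 100000 permutations over all females and exact within number groups. No pair of libraries was alike (chi-square per degree of freedom at least 10.04 over 105 pairs).

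The number groups, the transcripts kept and the lists were chosen with earlier results of these data known. Kept means an unadjusted p below 0.05 and the same sign in both models. Named were the 2 rising and the 2 falling kept transcripts with the largest smaller t of both models, and the transcripts of rank 3 rising and of ranks 3 and 6 falling were picked after their values were seen. Gene lists were not used, since no transcript matched a gene name among the 30976 genes of the RefSeq table. Floors of 3 counts cover counting error only, not reads shared with other transcripts.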

Additional observations from a re-analysis of the deposited data

Results flagged for a closer look

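Within each context, a female far from the rest was searched for in SL, 6 library measures and the TPM of the 4 named transcripts. The library measures were total, transcripts detected, TMM factor and principal components 1 to 3. Chance finds such a female in about 1 in 20 groups of normally distributed values, and 3 of the 22 groups searched held one. That rate need not hold for the named transcripts. They were chosen by their SL slopes in these females, and the rising ones have many counts of 0. In Mm females, ENSPLAT00000001780.1 was at 11.7 TPM in female 3 (51.4 mm), with the other 7 between 0 and 4.27 TPM. In Ff females, ENSPLAT00000011895.1 was at 58.2 TPM in female 17, the shortest at 30.3 mm, with the other 6 between 28.6 and 38.9 TPM. In Ff females, the library of female 8, the longest at 53.1 mm, held 10555933 estimated counts, with the other 6 between 5301116 and 6742415.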

How the results depend on the processing

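With each female left out in turn, SL calls numbered 2610 to 3602 with context, 760 to 1227 with number group, 1150 to 1759 with preference and 307 to 513 kept, and the slope differences between contexts 759 to 1064. At an adjusted p below 0.05 limma gave 0 in all 5 counts. edgeR gave 2 with context and 0 in the other 4, and DESeq2 gave 330 with context, 3 with number group, 5 slope differences, 26 with preference and 1 kept. These adjusted counts for edgeR and DESeq2, and those of limma for preference and the slope difference, were chosen after seeing the data. A count of 10 or more in every female, which left 14628 transcripts to test, gave 585 with number group and 256 kept. As shares these were 4% and 1.75%, close to the 4.11% and 1.79% of the main fits. The female's number as a numeric term gave 1393 (6.43%) in place of number group. Fewer females gave 911 in females 9 to 19 alone, 657 in females 1 to 8 alone and 1302 in Ff females alone. With the library total as a term the kept count was 307, and the other settings kept each count within 1.5 times. ENSPLAT00000001780.1 had a slope of -0.31 in edgeR with number group and of -1.96 in females 9 to 19 alone, and the cause was not tested. In females 9 to 19 the r of SL was 0.138 with transcripts detected, -0.350 with the TMM factor, and -0.178, -0.148 and 0.302 with principal components 1, 2 and 3. In females 1 to 8 it was 0.665 with the total estimated count (exact permutation p = 0.0754), 0.302 with transcripts detected, -0.499 with the TMM factor and -0.148 with component 1. Over all females r with the TMM factor was 0.379 (permutation p = 0.1635), while both number groups gave negative values. Those had exact permutation p = 0.4175 in females 9 to 19 and 0.2127 in females 1 to 8. None of the 3 passed the threshold, so a turn of sign was not established. Without the 2 females farthest from the median SL, r with the total estimated count was 0.552 (permutation p = 0.0499), against 0.469 over all females (permutation p = 0.0788). No paired analysis was possible because each female carries her own number.

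The number groups share few lengths, so a slope common to both rests on 7 and 8 females, and among the 7 largely on the 2 longest. Transcripts with counts of 0 have slopes set in part by the offset before logs. Preference, number and length are related in these females and cannot be fully told apart.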
